A study of Mus musculus with 38 samples.

Results

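The 40 genes described here are a set of cell cycle and proliferation genes chosen by symbol, from the cyclins and origin licensing factors of the G1/S transition to the proteins that separate chromosomes and end mitosis. All 40 were found among 19218 genes measured by bulk RNA sequencing of mouse tail skin, and all 40 passed the filter on low counts in every comparison. The series had 38 libraries in 6 groups of mice. Skin came from mice induced with vitiligo and given ABX (vitiligo_ABX, 6 libraries), wild type mice given ABX without induction (no_induction_ABX, 6), mice with vitiligo induction alone (vitiligo, 9) and wild type mice with neither (no_induction, 9). Hippuric acid was injected intraperitoneally into wild type mice (hippuric_acid, 5), and further wild type mice received its vehicle by the same route (vehicle, 3). ABX was used to deplete gut microbes, and hippuric acid is a metabolite derived from them. Age, sex, dose, and the way in which vitiligo was induced are not given in the sources used here, and nothing in the labels says whether libraries came from separate mice. The p-values therefore measure the spread between these libraries.

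A cell that divides first licenses its replication origins by loading the MCM helicase, copies its DNA, and then builds a spindle that parts the chromosomes. Transcripts of the G1/S genes are driven by E2F factors, and those of the G2/M genes by the MuvB complex with B-Myb and FOXM1, so both groups follow the share of cells in cycle. In skin the cells in cycle are mainly basal keratinocytes of the epidermis and sebaceous gland and, in growing follicles, the matrix cells of the hair bulb. Matrix cells divide and move up to form the inner root sheath and the hair shaft, where keratins and keratin-associated proteins (Krtap genes) fill the dying cell.

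Library totals ran from 15341831 to 27920844 counts, and single members had between 35 and 5835 counts in a library. Levels are in CPM, counts scaled to a common library total with TMM factors. Basal keratinocytes, which tail skin holds, were marked in all libraries: 12 basal keratinocyte genes summed to 5507 to 12045 CPM, and none of them was at 0 in any library. Markers of intestine summed to over 20 CPM in 4 libraries, at 28.4 and 64.8 CPM in 2 of the vitiligo group and 44.1 and 33.4 CPM in no_induction 011 and 012, against at most 14.4 CPM in the other 34. One vitiligo library, numbered 001, stood apart. Its 40 members summed to 1872 CPM, against 833 to 1160.3 CPM in the other 8, and 37 of 40 members were highest there among the 9 vitiligo libraries, all but Ccne2, E2f1 and Cdc6. It also held the most transcripts of 11 hair matrix markers (882 against 413 to 657 CPM) and the fewest of 7 fibroblast genes (4219 against 10329 to 13922 CPM) and of 8 myeloid genes (391 against 875 to 2278 CPM). Counts of members called in comparisons with the vitiligo group are given with and without it. As it was singled out by its level of these same genes, leaving it out lowers most of them in vitiligo by construction. Calls made without it describe how far 1 library weighs and are no separate support.

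The summed level of the 40 genes had group means close to each other beside their spread. It was 1291 ± 98.6 CPM in vitiligo_ABX, 1173 ± 171 in no_induction_ABX, 1134 ± 301 in vitiligo, 1256 ± 212 in no_induction, 1328 ± 294 in hippuric_acid and 1148 ± 112 in vehicle (mean ± SD over 6, 6, 9, 9, 5 and 3 libraries). The ranges of all 6 groups overlapped, and the widest was that of the vitiligo group, 833 to 1872 CPM. The chromosome and kinetochore genes summed to 342 ± 104 CPM in hippuric_acid and 247 ± 21.2 CPM in vehicle, and 263 ± 120.3 CPM in vitiligo and 269 ± 89.7 CPM in no_induction. In bulk skin, fewer cells in cycle and less transcript per cell cannot be told apart.

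**Figure D1:**
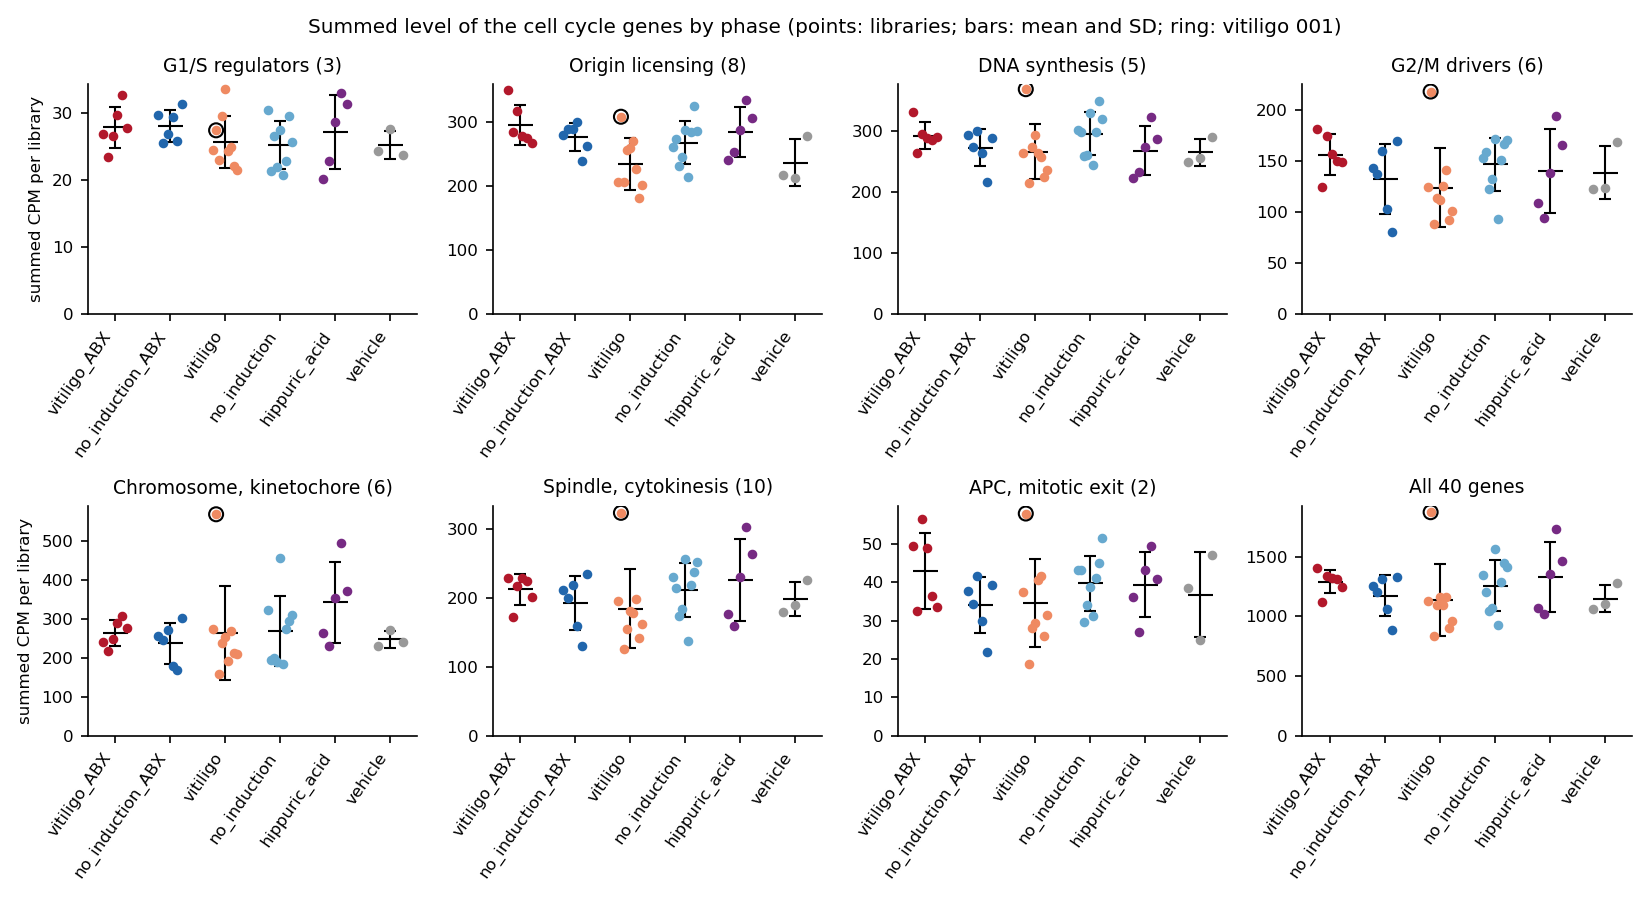
Summed CPM per library (y axis) of the members of each of 7 phases and of all 40 genes, by group (x axis). Points are libraries, bars are the mean and SD, and a ring marks vitiligo 001, which at 1872 CPM lies above every other library in the panel of all 40 genes.

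Per kilobase of transcript, the members spanned a wide range of levels in tail skin. Averaged over the 38 libraries, Pcna, the sliding clamp of the DNA polymerases, stood highest at 74.4 CPM per kb, followed by Rrm1, the large subunit of ribonucleotide reductase, at 24.0 CPM per kb. Cdc6, which loads the MCM helicase onto origins, was lowest at 1.01 CPM per kb, and the long kinetochore genes Cenpe and Cenpf stood at 1.60 and 1.82 CPM per kb. Mki67, the proliferation antigen that coats mitotic chromosomes, and Top2a, the topoisomerase that untangles them, were at 12.4 and 15.3 CPM per kb.

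Between libraries of the same group the members moved together. With group means removed, the median Pearson correlation over 780 pairs of members was 0.68 across 38 libraries, and 97.8% of pairs (763) had a positive one. These values describe libraries that share depth and tissue makeup. A single component held 65.4% of the members' variance, and the next held 10.9%. Along that next component Cenpe, Cenpf, Nusap1 and Mki67 lay at one end, and Mcm3, Cdt1 and Mcm7 at the other, and the position of a member had a correlation of 0.46 with the log2 length of its transcript. Rrm1 was the member most like the others (mean correlation 0.75), close to Tpx2 (0.74), a spindle assembly factor, and Kif20a (0.74), a kinesin of cytokinesis. The transcription factor E2f1 (0.072), Cdc6 (0.21) and Ccne2, a cyclin of S phase entry (0.28), shared least with the rest. The members' median SD within groups was 0.32 on the log2(CPM + 1) scale, against 0.22 for the 13376 genes that average at least 1 CPM.

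Induction of vitiligo alone left none of the 40 genes called. In vitiligo against no_induction 0 of 40 members had an adjusted p under 0.05 in edgeR, beside 7.74% of all 13826 genes tested, and 6 members had an unadjusted p under 0.05. The members' median log2 fold change was -0.16, against 0.0057 for all genes, and 36 of 40 estimates were negative. Foxm1, the transcription factor of the G2/M programme, came closest, with a lowest, median and highest level of 12.5, 15.2 and 25.0 CPM in vitiligo and 14.2, 22.3 and 29.3 CPM in no_induction. Its estimate was -0.43 ± 0.15 (log2 fold change ± SE) with adjusted p = 0.0730, and the 2 groups overlapped. Among the DNA synthesis genes, Rrm2, the small subunit of ribonucleotide reductase, had 18.1, 29.4 and 38.9 CPM in vitiligo and 27.0, 36.5 and 42.5 CPM in no_induction, an estimate of -0.32 ± 0.12 (adjusted p = 0.10). Aurka, a kinase of the spindle poles, was at -0.51 ± 0.20 (adjusted p = 0.118), and Plk1, a kinase of mitotic entry, at -0.42 ± 0.20 (adjusted p = 0.184). E2f1 had the largest positive estimate, 0.26 ± 0.10 (adjusted p = 0.107).

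The genes most used as proliferation markers were not called in this comparison. Mki67 had 75.0, 108 and 302 CPM in vitiligo and 71.6, 120.4 and 236 CPM in no_induction, and its estimate was 0.057 ± 0.25 (adjusted p = 0.910). Top2a was at -0.095 ± 0.20 (adjusted p = 0.798), Pcna at -0.0070 ± 0.078 (adjusted p = 0.970) and Mcm2, a subunit of the MCM helicase, at -0.22 ± 0.14 (adjusted p = 0.325). Ccne1, the cyclin that drives S phase entry, stood at -0.20 ± 0.15 (adjusted p = 0.413). Cdk1, the kinase that drives mitosis, and its partner Ccnb1 stood at -0.17 ± 0.17 (adjusted p = 0.550) and -0.22 ± 0.17 (adjusted p = 0.419).

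The count in this comparison turned on 1 library, singled out above by its level of these same genes. Without vitiligo 001, 8 of 40 members were lower in vitiligo and none was higher, beside 18.6% of all genes called. The members were thus called about as often as genes at large. The 8 were Aurka at -0.67 ± 0.18, Plk1 at -0.58 ± 0.17, Foxm1 at -0.51 ± 0.14, Aurkb, a kinase of the chromosomal passenger complex, at -0.47 ± 0.15, Rrm2 at -0.39 ± 0.12, Tpx2 at -0.37 ± 0.11, Cdk1 at -0.35 ± 0.12 and Rrm1 at -0.30 ± 0.091, with adjusted p from 0.0166 to 0.0481. Mki67 then stood at -0.21 ± 0.19 (adjusted p = 0.455). Hair matrix markers, of which 0 of 11 were called, summed to 413 to 882 CPM across vitiligo skin, against 533 to 829.7 CPM across no_induction skin. With all libraries and that summed level as a covariate, a setting chosen after the data were seen, the members' median turned to 0.075 with 30 of 40 positive. The 8 calls without vitiligo 001 were not tested with this covariate. With all libraries and the Krtap level as a covariate instead, the members' median was -0.25 with 1 of 40 positive. Adipocyte markers did not overlap between the groups, at 1679 to 5159 CPM across vitiligo skin, against 408 to 1249 CPM across no_induction skin, and their part in the result was not tested.

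In induced mice, ABX went with more transcript of 2 subunits of the MCM helicase. In vitiligo_ABX against vitiligo 2 of 40 members rose, Mcm6 and Mcm2, and none fell, beside 13.1% of all 14014 genes tested. Mcm6 had a lowest, median and highest level of 71.0, 72.5 and 86.1 CPM in vitiligo_ABX, against 40.2, 55.8 and 71.7 CPM in vitiligo. The lowest vitiligo_ABX library lay above the vitiligo median, and 4 of 6 lay above every vitiligo library. The log2 fold change was 0.44 ± 0.12 (adjusted p = 0.0185), and Mcm6 was called without any 1 of the 15 libraries (adjusted p 0.00519 to 0.0436). Mcm2 had 31.9, 35.7 and 44.6 CPM in vitiligo_ABX and 20.1, 25.2 and 39.2 CPM in vitiligo. All 6 vitiligo_ABX libraries exceeded the vitiligo median and 2 exceeded every vitiligo library, with a log2 fold change of 0.45 ± 0.14 (adjusted p = 0.0458). Of 15 fits without 1 library Mcm2 was called in 3, those without vitiligo 001, 039 or 062 (adjusted p over all 15 from 0.00832 to 0.102). Mcm4 and Mcm3, further subunits of the same ring, narrowly missed the threshold at 0.27 ± 0.087 (adjusted p = 0.0503) and 0.36 ± 0.12 (adjusted p = 0.0510), and the 8 licensing genes all had positive estimates, from 0.18 to 0.45. Separation between libraries was not particular to the called genes, as 5 of 6 vitiligo_ABX libraries exceeded every vitiligo library for Mcm4.

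The promoters of the members differed by phase in the letters they held. RefSeq (GRCm38.p6) gave 32 of the 40 genes a window from 250 bases before to 50 bases after the start, in which 3 motifs were searched on both strands: an E2F motif (TTTCGCGC, TTTGGCGC, TTTCCCGC or TTTGCCGC), the CCAAT box, and the CHR element (TTTGAA or TTCGAA) of the MuvB complex. The E2F letters were in 6 of 7 licensing, 0 of 5 DNA synthesis and 0 of 2 G1/S regulator promoters. They were in 7 of 32 member promoters in all (21.9%), and 2.32% of 27025 promoters. CHR was in 5 of 6 chromosome and kinetochore, 5 of 7 spindle, 2 of 7 licensing and 0 of 5 DNA synthesis promoters. It was in 16 of 32 members and 19.4% of all promoters. CCAAT was in 71.9% of members and 37.9% of all promoters. A match is a description of the sequence and not a bound site. The windows below belong, among the members that had one, to the member with the smallest p in vitiligo_ABX against vitiligo in each of 4 phases, and capitals mark the motifs on either strand. They are Mcm6 at chr1:128359656-128359955 (minus strand), where the first 2 of 3 E2F matches overlap, Rrm2 at chr12:24708004-24708303 (plus strand), Ccnb2 at chr9:70421505-70421804 (minus strand) and Plk1 at chr7:122159185-122159484 (plus strand).
Mcm6: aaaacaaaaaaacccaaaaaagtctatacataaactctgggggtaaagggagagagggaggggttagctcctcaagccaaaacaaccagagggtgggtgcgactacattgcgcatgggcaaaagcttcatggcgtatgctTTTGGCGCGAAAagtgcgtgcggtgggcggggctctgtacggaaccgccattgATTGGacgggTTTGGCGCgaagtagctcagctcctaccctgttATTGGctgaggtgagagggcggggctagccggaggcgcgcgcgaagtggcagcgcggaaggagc
Rrm2: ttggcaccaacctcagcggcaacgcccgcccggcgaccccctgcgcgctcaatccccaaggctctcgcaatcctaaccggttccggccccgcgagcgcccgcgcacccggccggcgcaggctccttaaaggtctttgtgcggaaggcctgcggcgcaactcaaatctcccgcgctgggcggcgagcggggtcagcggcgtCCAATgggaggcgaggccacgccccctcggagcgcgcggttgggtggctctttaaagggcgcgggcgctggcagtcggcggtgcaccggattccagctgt
Ccnb2: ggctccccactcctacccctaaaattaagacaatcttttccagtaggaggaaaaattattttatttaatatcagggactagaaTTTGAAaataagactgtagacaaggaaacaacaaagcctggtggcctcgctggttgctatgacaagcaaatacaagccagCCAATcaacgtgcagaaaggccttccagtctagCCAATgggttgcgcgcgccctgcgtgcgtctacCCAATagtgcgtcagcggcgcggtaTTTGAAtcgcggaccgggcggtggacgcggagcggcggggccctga
Plk1: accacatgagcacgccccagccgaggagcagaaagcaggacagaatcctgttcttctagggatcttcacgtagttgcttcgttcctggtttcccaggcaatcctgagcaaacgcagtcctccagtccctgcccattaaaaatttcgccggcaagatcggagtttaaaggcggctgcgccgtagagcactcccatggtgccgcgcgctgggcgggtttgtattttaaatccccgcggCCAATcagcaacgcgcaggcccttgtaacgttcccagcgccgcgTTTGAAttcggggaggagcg
Mcm6 holds E2F and CCAAT letters and no CHR. Rrm2 holds a single CCAAT box. Ccnb2 holds 3 CCAAT boxes and 2 CHR elements, and Plk1 holds 1 of each, its CHR lying 31 bases after the start.

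No gene of the other phases was called. The median log2 fold change of all 40 members was 0.26, against 0.017 for all genes, and 35 of 40 estimates were positive. The G2/M drivers had a median of 0.33. Ccna2, the cyclin of S phase and G2, had 36.3, 44.7 and 49.5 CPM in vitiligo_ABX and 23.7, 32.2 and 57.2 CPM in vitiligo, an estimate of 0.40 ± 0.16 (adjusted p = 0.0990). Ccnb2, a mitotic cyclin, was at 0.40 ± 0.16 (adjusted p = 0.118) and Plk1 at 0.50 ± 0.22 (adjusted p = 0.137). Cdk1 stood at 0.29 ± 0.19 (adjusted p = 0.327), Ccnb1 at 0.26 ± 0.18 (adjusted p = 0.364) and Ccne1 at 0.30 ± 0.17 (adjusted p = 0.240). The chromosome and kinetochore genes had a median of 0.017, with Top2a at 0.17 ± 0.19 (adjusted p = 0.592) and Mki67 at -0.15 ± 0.24 (adjusted p = 0.720). Pcna was at -0.011 ± 0.089 (adjusted p = 0.952).

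Here too vitiligo 001 weighed on the count, and leaving it out raises most of the estimates by construction. Without it 19 of 40 members rose in vitiligo_ABX and none fell, beside 20.1% of all genes, and the members' median was 0.37. Mcm2, Mcm3, Mcm4 and Mcm6 were joined by all 6 G2/M drivers, among them Ccna2 at 0.54 ± 0.11 (adjusted p = 0.00330) and Cdk1 at 0.48 ± 0.11 (adjusted p = 0.00781), by 6 spindle genes, among them Plk1 at 0.68 ± 0.17 (adjusted p = 0.0125) and Aurka at 0.61 ± 0.18 (adjusted p = 0.0267), and by Rrm1, Rrm2 and Cdc20, the activator of the anaphase-promoting complex. Mki67 stood at 0.13 ± 0.12 (adjusted p = 0.471) and Top2a at 0.35 ± 0.13 (adjusted p = 0.0762). Leaving out the 2 vitiligo libraries with intestine markers instead left 0 of 40 called, beside 961 of all genes, with Mcm6 at 0.37 (adjusted p = 0.0568). Of 11 hair matrix markers 4 rose. Summed, the 11 ran at 632 to 859 CPM across vitiligo_ABX skin, against 413 to 882 CPM across vitiligo skin, none at 0 in any library. With that level as a covariate 0 of 40 members were called, beside 706 of all genes. In that fit Mcm6 stood at 0.28 ± 0.14 (adjusted p = 0.247) and Mcm2 at 0.15 ± 0.15 (adjusted p = 0.586), and the members' median was -0.036 with 19 of 40 positive. The 19 calls without vitiligo 001 were not tested with this covariate. With all libraries and the Krtap level as a covariate instead, Mcm6 and Mcm2 stayed called. The members' median was then 0.24 with 35 of 40 positive. Adipocyte markers, at 271 to 719 CPM across vitiligo_ABX skin, against 1679 to 5159 CPM across vitiligo skin, did not overlap. Nor did melanocyte markers, at 151 to 252 CPM across vitiligo_ABX skin, against 50.5 to 146 CPM across vitiligo skin. The part of either in the result was not tested.

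**Figure D2:**
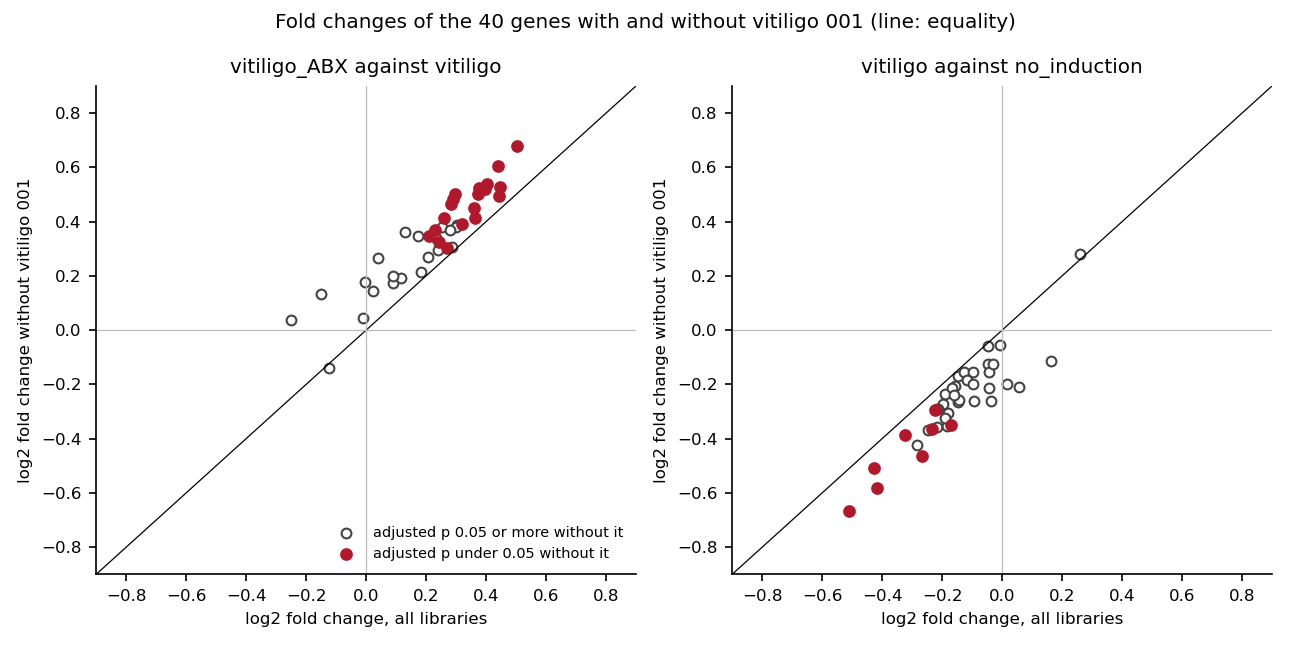
Log2 fold change of each of the 40 genes with all libraries (x axis) and without vitiligo 001 (y axis), for vitiligo_ABX against vitiligo (left) and vitiligo against no_induction (right). Filled points have an adjusted p under 0.05 without that library, 19 on the left and 8 on the right, and the line marks equal values.

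Without induction, ABX went with a change in 1 of the 40 genes, although 31.1% of all 13971 genes were called. In no_induction_ABX against no_induction Mcm6 rose, with a lowest, median and highest level of 65.4, 71.9 and 82.8 CPM in no_induction_ABX and 51.1, 64.4 and 73.5 CPM in no_induction. All 6 no_induction_ABX libraries lay above the no_induction median, the groups overlapped, and the log2 fold change was 0.20 ± 0.075 with adjusted p = 0.0498. Of 9 other settings 8 lost this call (adjusted p over the 9 from 0.0446 with DESeq2 to 0.868 with the Krtap level as a covariate). Of 15 fits without 1 library 4 kept it, those without no_induction_ABX 005 or 006 or no_induction 011 or 022 (adjusted p over the 15 from 0.0289 to 0.131). The members' median was -0.13, against -0.0021 for all genes. Foxm1 stood at -0.29 ± 0.15 (adjusted p = 0.143), Plk1 at -0.35 ± 0.18 (adjusted p = 0.151) and Ube2c, a ubiquitin-conjugating enzyme of the anaphase-promoting complex, at -0.30 ± 0.15 (adjusted p = 0.150). Mki67 stood at -0.18 ± 0.23 (adjusted p = 0.585), Top2a at -0.27 ± 0.19 (adjusted p = 0.287), Cdk1 at -0.095 ± 0.17 (adjusted p = 0.703), Ccnb1 at -0.18 ± 0.18 (adjusted p = 0.486), Mcm2 at 0.0033 ± 0.12 (adjusted p = 0.988), Ccne1 at 0.068 ± 0.18 (adjusted p = 0.803) and Pcna at -0.048 ± 0.078 (adjusted p = 0.667).

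Transcripts of the hair follicle differed more widely between the same groups. The 46 Krtap genes summed to 3939 to 9577 CPM in no_induction_ABX and 17531 to 25606 CPM in no_induction, ranges that did not overlap, and 41 of 46 were called lower. Of the hair matrix markers 5 of 11 were lower, and the 11 summed to 255 to 533 CPM across no_induction_ABX skin, against 533 to 829.7 CPM across no_induction skin, ranges that barely met. With the hair matrix level as a covariate, an alternative chosen after the data were seen, 10 of 40 members were called higher in no_induction_ABX, beside 846 of all genes called in either direction, and the members' median was 0.51 with 38 of 40 positive. Hardly any libraries of the 2 groups had a matrix level in common. Cdk1 stood at 0.80 ± 0.11 (adjusted p = 5.25e-04), Ccna2 at 0.70 ± 0.15 (adjusted p = 0.00877) and Kif11, the kinesin that pushes spindle poles apart, at 0.88 ± 0.19 (adjusted p = 0.0115) in that fit, with Ccne1 at 0.82 ± 0.22 (adjusted p = 0.0323) and Mcm6 at 0.32 ± 0.12 (adjusted p = 0.146). With the Krtap level as a covariate 0 of 40 members were called, beside 1 of all genes. The members' median was then 0.15 with 32 of 40 positive.

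Under ABX, induction changed no member by the test. In vitiligo_ABX against no_induction_ABX 0 of 40 were called, beside 4.97% of all 13876 genes, and 6 had an unadjusted p under 0.05. The median log2 fold change was 0.21, against 0.0080 for all genes, with 37 of 40 estimates positive. Ube2c was at 0.50 ± 0.20 (adjusted p = 0.175), Ccnb2 at 0.47 ± 0.19 (adjusted p = 0.163), Plk1 at 0.44 ± 0.18 (adjusted p = 0.180) and Mcm7, another helicase subunit, at 0.25 ± 0.096 (adjusted p = 0.152). Top2a had 71.5, 90.2 and 97.2 CPM in vitiligo_ABX and 47.7, 72.5 and 87.2 CPM in no_induction_ABX, an estimate of 0.35 ± 0.14 (adjusted p = 0.181). Mki67 was at 0.087 ± 0.17 (adjusted p = 0.816), Mcm2 at 0.22 ± 0.10 (adjusted p = 0.217), Cdk1 at 0.21 ± 0.18 (adjusted p = 0.541), Ccnb1 at 0.22 ± 0.19 (adjusted p = 0.570), Pcna at 0.027 ± 0.078 (adjusted p = 0.886) and Ccne1 at 0.033 ± 0.20 (adjusted p = 0.946). Summed hair matrix markers were 632 to 859 CPM in vitiligo_ABX and 255 to 533 CPM in no_induction_ABX, ranges that did not overlap. With that level as a covariate, chosen after the data were seen, the members' median turned to -0.36 with 5 of 40 positive. That fit puts 1 common slope across the gap, while the summed members and the matrix level had r = -0.26 in vitiligo_ABX and 0.97 in no_induction_ABX. It therefore cannot show a difference at equal matrix level. With the Krtap level as a covariate the median was 0.19 with 36 of 40 positive.

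Whether the effect of induction itself differed with ABX was tested as an interaction over the 30 libraries of these 4 groups. Each of the 4 comparisons above used 2 of the groups, so the interaction is not separate from them. No member of 40 was called, beside 11.5% of all 14310 genes, and 10 had an unadjusted p under 0.05. The members' median interaction was 0.35 on the log2 scale, against -0.025 for all genes, with 36 of 40 estimates positive. With the hair matrix level as a covariate, chosen after the data were seen, the median turned to -0.47 with 2 of 40 positive. With the Krtap level as a covariate instead, it was 0.49 with 39 of 40 positive. Without a covariate Plk1 was at 0.85 ± 0.30 (adjusted p = 0.0598), Foxm1 at 0.64 ± 0.23 (adjusted p = 0.0612) and Rrm2 at 0.50 ± 0.18 (adjusted p = 0.0676), and DESeq2 called these 3. Mcm2 was at 0.43 ± 0.19 (adjusted p = 0.139), Top2a at 0.43 ± 0.28 (adjusted p = 0.334), Ccnb1 at 0.42 ± 0.27 (adjusted p = 0.314), Cdk1 at 0.37 ± 0.27 (adjusted p = 0.380), Ccne1 at 0.22 ± 0.25 (adjusted p = 0.594), Pcna at 0.023 ± 0.12 (adjusted p = 0.917) and Mki67 at 0.019 ± 0.35 (adjusted p = 0.981). Without vitiligo 001, 10 of 40 members were called, all positive, among them Plk1 at 1.02 ± 0.26 (adjusted p = 0.00791) and Aurka at 0.90 ± 0.26 (adjusted p = 0.0180), beside 18.8% of all genes. Leaving out a library singled out by these same genes raises most of these estimates by construction.

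**Figure D3:**
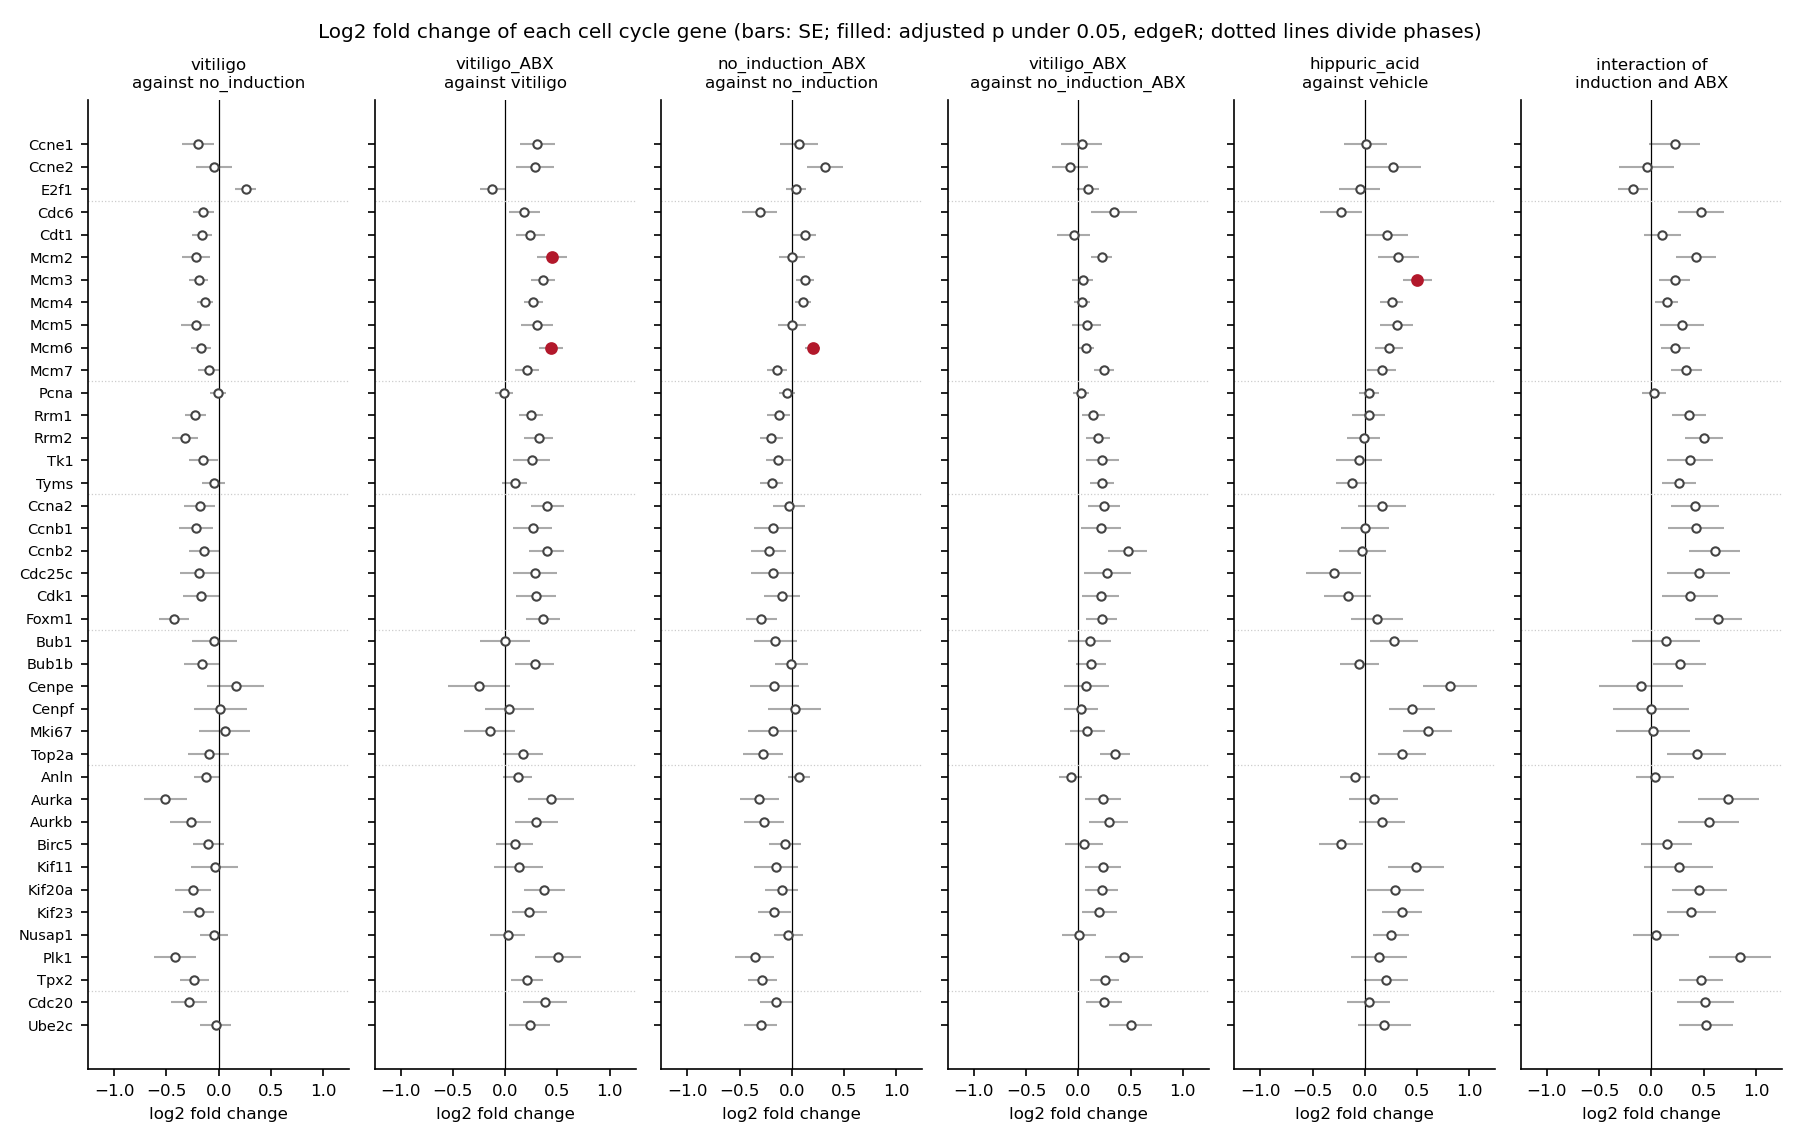
Log2 fold change (x axis) of each of the 40 genes (rows, by phase) in 5 comparisons and the interaction, with the SE as bars. Filled points have an adjusted p under 0.05 in edgeR. These are Mcm2 and Mcm6 in vitiligo_ABX against vitiligo, Mcm6 in no_induction_ABX against no_induction and Mcm3 in hippuric_acid against vehicle.

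Hippuric acid went with a higher level of 1 licensing gene. In hippuric_acid against vehicle 1 of 40 members rose and none fell, beside 13.8% of all 14097 genes. Mcm3 had 30.7, 34.4, 37.4, 39.5 and 45.6 CPM in the 5 hippuric_acid libraries and 24.8, 25.5 and 29.1 CPM in the 3 vehicle libraries. The groups did not overlap, and the log2 fold change was 0.50 ± 0.14 (adjusted p = 0.0329). Of 8 other settings 3 lost the call, the Krtap covariate, the hair matrix covariate and the library numbers as a block (adjusted p over the 8 from 0.0104 to 0.0985). Of 8 fits without 1 library 5 lost it, those without vehicle 002 or 003 or hippuric_acid 3, 4 or 5 (adjusted p over the 8 from 0.0260 to 0.0961). Cenpe, the kinesin that carries chromosomes to the spindle equator, had 11.8, 16.6, 16.7, 21 and 26.4 CPM in hippuric_acid and 7.94, 10.1 and 13.5 CPM in vehicle. It overlapped between groups and missed the threshold at 0.82 ± 0.25 (adjusted p = 0.0564).

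Mki67 had 114, 128, 180.4, 186 and 248 CPM in hippuric_acid and 102, 102 and 135 CPM in vehicle, an estimate of 0.60 ± 0.24 (adjusted p = 0.118). Cenpf, a kinetochore protein, was at 0.45 ± 0.22 (adjusted p = 0.193) and Top2a at 0.36 ± 0.23 (adjusted p = 0.333), and the 6 chromosome and kinetochore genes had a median of 0.40. The DNA synthesis genes had a median of -0.011 and the G2/M drivers one of -0.012, against 0.024 for all genes. The chromosome and kinetochore genes include the longest member transcripts, Cenpf (11130 bases), Mki67 (10061 bases) and Cenpe (7910 bases). Whether phase or transcript length goes with these medians was not tested. Cdk1 was at -0.16 ± 0.22 (adjusted p = 0.659), Ccnb1 at 0.0024 ± 0.23 (adjusted p = 0.996), Pcna at 0.038 ± 0.096 (adjusted p = 0.823), Ccne1 at 0.0082 ± 0.21 (adjusted p = 0.984) and Mcm2 at 0.32 ± 0.19 (adjusted p = 0.295). The summed level of the members had the wide spread of 1019 to 1732 CPM in hippuric_acid and 1063 to 1275 CPM in vehicle, and 3 of 11 hair matrix markers rose, the 11 summing to 589 to 813 CPM across hippuric_acid skin, against 369.7 to 721 CPM across vehicle skin. With that level as a covariate the members' median turned to -0.13 with 13 of 40 positive. With the Krtap level as a covariate instead, it was 0.049 with 25 of 40 positive. Ranges did not overlap for suprabasal markers, at 11253 to 14129 CPM across hippuric_acid skin, against 29906 to 42965 CPM across vehicle skin, or for adipocyte markers, at 284 to 783 CPM across hippuric_acid skin, against 1421 to 1844 CPM across vehicle skin. Basal keratinocyte markers, at 5507 to 6833 CPM across hippuric_acid skin, against 7956 to 9893 CPM across vehicle skin, did not overlap either, nor did hair keratins, melanocyte, or bone and cartilage markers. Their part in the result was not tested.

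None of the 40 genes was called for a slope on the level of hair shaft transcripts within groups. In a fit over all 38 libraries with a term for each group, 0 of 40 members were called for a slope on the log2 summed CPM of the Krtap genes, beside 1.15% of all 14720 genes, and 0 had an unadjusted p under 0.05. The genes tested included the Krtap genes that make up this level. At so low a share a set of 40 would seldom hold a call, so the count does not set the members apart from other genes. Slopes ran from -0.31 to 0.036 (log2 CPM per log2 CPM), with a median of -0.11 against -0.013 for all genes, and 39 of 40 were negative. Mki67 had a slope of -0.20 ± 0.20 and Top2a of -0.012 ± 0.17. The 46 Krtap genes summed to 16465 ± 6225 CPM in vitiligo_ABX, 6523 ± 2324 in no_induction_ABX, 16948 ± 4352 in vitiligo, 21219 ± 3029.6 in no_induction, 14140 ± 3653 in hippuric_acid and 17526 ± 4654 in vehicle (mean ± SD). The summed level of the 40 members and the Krtap level had a Pearson correlation of -0.16 with group means removed (n = 38). Single groups differed in sign, with r = -0.52 in vitiligo_ABX (n = 6) and -0.49 in vitiligo (n = 9). It was 0.27 in no_induction_ABX (n = 6) and 0.20 in no_induction (n = 9). The difference between groups was not tested.

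Within single groups no relation of Mki67 or Top2a to the Krtap level passed the threshold. Over 8 correlations of log2(CPM + 1), each in 1 group of 6 or 9 libraries, the smallest adjusted p was 0.746 for Pearson and 0.544 for Spearman. Mki67 gave r = -0.45 and rho = -0.31 (exact permutation p = 0.347 and 0.564) in vitiligo_ABX, r = 0.080 and rho = 0.14 (exact permutation p = 0.861 and 0.803) in no_induction_ABX, r = -0.32 and rho = -0.57 (exact permutation p = 0.399 and 0.121) in vitiligo and r = 0.21 and rho = 0.40 (exact permutation p = 0.586 and 0.291) in no_induction. Top2a gave r = 0.12 and rho = 0.029 (exact permutation p = 0.785 and 1) in vitiligo_ABX, r = 0.57 and rho = 0.71 (exact permutation p = 0.229 and 0.136) in no_induction_ABX, r = -0.36 and rho = -0.42 (exact permutation p = 0.346 and 0.270) in vitiligo and r = 0.27 and rho = 0.27 (exact permutation p = 0.47 and 0.49) in no_induction. Without the 2 libraries farthest from the median Krtap level, r of Mki67 was -0.95, 0.67, -0.42 and 0.17 in these 4 groups in the same order, and r of Top2a, which turned in sign in vitiligo_ABX, was -0.95, 0.93, -0.30 and 0.049.

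On the level of the hair matrix markers most cell cycle genes had a positive slope. This level was set in place of the Krtap level after the data were seen, and it sums 11 genes, among them Lef1, Msx2, Hoxc13 and Shh, which mark the dividing bulb or are made by it. In the same fit, 36 of 40 members were called for their slope on it, all positive, beside 31.5% of all 14720 genes, and the median slope was 0.72 against -0.017 for all genes. The steepest phases were the G2/M drivers, with a median of 0.87 and 6 of 6 called, and the spindle genes, with a median of 0.81 and 10 of 10 called. All 6 chromosome and kinetochore and all 5 DNA synthesis genes were called too, with medians of 0.77 and 0.53, and 6 of 8 licensing genes, with a median of 0.29. Cdk1 had a slope of 0.94 ± 0.12 (adjusted p = 4.32e-07), Kif11 of 1.07 ± 0.17 (adjusted p = 8.60e-06), Mki67 of 0.94 ± 0.19 (adjusted p = 3.43e-04), Top2a of 0.87 ± 0.15 (adjusted p = 4.53e-05), Mcm2 of 0.62 ± 0.11 (adjusted p = 6.21e-05), Ccne1 of 0.72 ± 0.13 (adjusted p = 1.12e-04) and Pcna of 0.22 ± 0.074 (adjusted p = 0.0194). Cdc6, Cdt1, which licenses origins with it, Ccne2 and E2f1 were not called, at 0.16 ± 0.16, 0.30 ± 0.13, 0.31 ± 0.21 and -0.20 ± 0.11.

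Without vitiligo 001, 27 of 40 members were called for a slope on the matrix level, beside 22% of all 14702 genes. On the summed level of 9 inner root sheath genes, the layer that sheaths the growing shaft, 19 of 40 were called, beside 19.1% of all genes. With group means removed, the members' summed level had a correlation of 0.75 with the matrix level, 0.53 with the inner root sheath level, -0.29 with the hair keratins, -0.0044 with basal keratinocyte genes and -0.47 with fibroblast genes (n = 38, as a description of libraries that share their totals). Without vitiligo 001 the value for fibroblast genes was -0.20, that for hair keratins -0.21 and that for the matrix level 0.68 (n = 37). The relation to the matrix level was not alike in all groups. It had r = -0.26 and rho = 0.14 in vitiligo_ABX (n = 6), r = 0.97 and rho = 1.00 in no_induction_ABX (n = 6), r = 0.73 and rho = 0.25 in vitiligo (n = 9) and r = 0.92 and rho = 0.83 in no_induction (n = 9), and the difference between groups was not tested. Mki67 on the matrix level gave r = -0.75 and rho = -0.77 (exact permutation p = 0.0875 and 0.103) in vitiligo_ABX, r = 0.97 and rho = 0.94 (exact permutation p = 0.00417 and 0.0167) in no_induction_ABX, r = 0.66 and rho = 0.10 (exact permutation p = 0.0675 and 0.810) in vitiligo and r = 0.62 and rho = 0.53 (exact permutation p = 0.0769 and 0.148) in no_induction. Top2a gave r = -0.71 and rho = -0.66 (exact permutation p = 0.122 and 0.175) in vitiligo_ABX, r = 0.86 and rho = 0.77 (exact permutation p = 0.0375 and 0.103) in no_induction_ABX, r = 0.74 and rho = 0.47 (exact permutation p = 0.0242 and 0.213) in vitiligo and r = 0.89 and rho = 0.82 (exact permutation p = 0.00144 and 0.0108) in no_induction. Adjusted over these 8 relations, the Pearson p of Mki67 in no_induction_ABX (0.0167, exact permutation) and of Top2a in no_induction (0.0115, exact permutation) were under 0.05, and no Spearman p was (smallest 0.0667). In vitiligo, r of Top2a was 0.74 with all 9 libraries and -0.050 without the 2 farthest from the median matrix level, and r of Mki67 was 0.66 and -0.29, so both rested on those libraries.

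**Figure D4:**
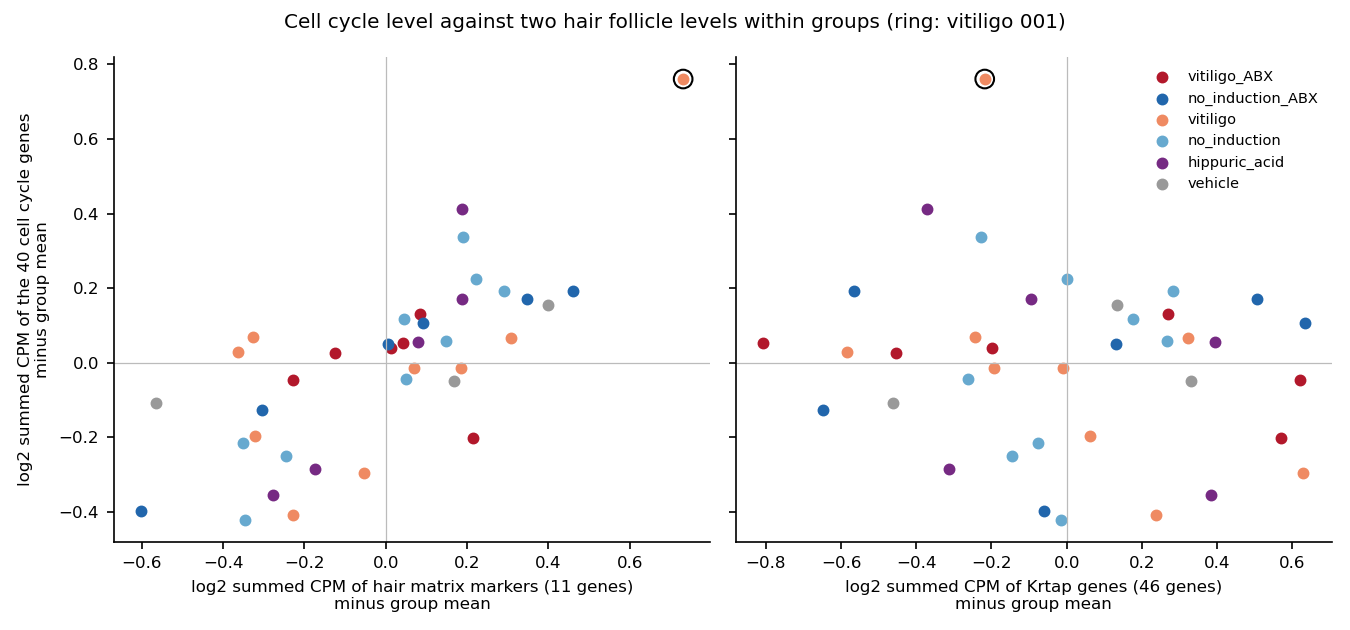
Log2 summed CPM of the 40 cell cycle genes (y axis) against that of the hair matrix markers (left) and of the Krtap genes (right), each minus its group mean, in 38 libraries coloured by group. The points climb with the matrix level (r = 0.75) and scatter against the Krtap level (r = -0.16). A ring marks vitiligo 001.

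**Figure D5:**
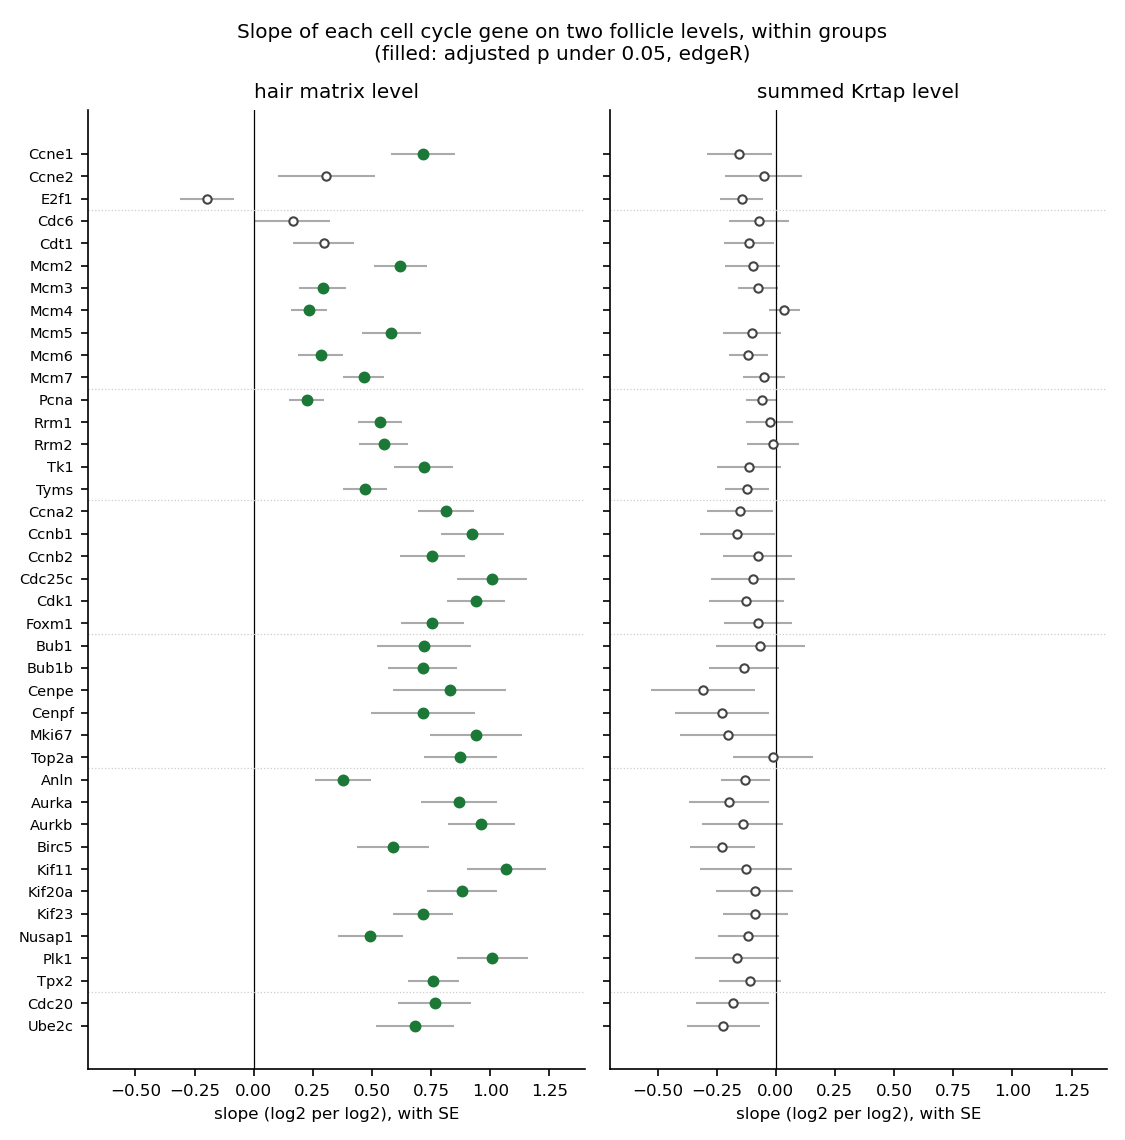
Slope within groups (x axis, log2 CPM per log2 CPM, with SE) of each of the 40 genes (rows, by phase) on the hair matrix level (left) and the Krtap level (right). Filled points have an adjusted p under 0.05 in edgeR, 36 of 40 on the left and 0 on the right.

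Other genes of the cycle, taken from 4 fixed lists, were also seldom called where they act in replication or mitosis, with all libraries in the fit. Counts of these lists in fits that held the vitiligo group include its library 001, and were not taken without it. That library had 878 CPM of the replication list, against 533 to 688 CPM in the other 8. Of the mitosis list it had 1209.5 CPM, against 582 to 792 CPM. Of 37 further replication genes and 49 further mitosis genes, 1 and 0 were called in vitiligo against no_induction, 1 and 1 in vitiligo_ABX against vitiligo, 0 and 1 in no_induction_ABX against no_induction, none in vitiligo_ABX against no_induction_ABX, and 0 and 1 in hippuric_acid against vehicle, beside 7.74%, 13.1%, 31.1%, 4.97% and 13.8% of all genes in these 5 comparisons. Of the replication genes this was Chaf1a, a histone chaperone of replication, at -0.31 ± 0.094 (adjusted p = 0.0482) in vitiligo against no_induction and 0.34 ± 0.10 (adjusted p = 0.0348) in vitiligo_ABX against vitiligo. Of the mitosis genes it was the condensin genes Ncaph at 0.46 ± 0.15 (adjusted p = 0.0470) in vitiligo_ABX against vitiligo and Smc2 at 0.77 ± 0.19 (adjusted p = 0.0256) in hippuric_acid against vehicle. Espl1, the protease separase, was the third, at -0.59 ± 0.14 (adjusted p = 0.00452) in no_induction_ABX against no_induction. In the interaction 2 replication genes were called, Dnmt1, which copies DNA methylation, at 0.54 ± 0.16 (adjusted p = 0.0247) and the checkpoint gene Clspn at 0.67 ± 0.22 (adjusted p = 0.0498), and 0 mitosis genes. On the hair matrix level 23 of the 37 and 42 of the 49 had positive slopes that were called, and none a negative one, beside 31.5% of all genes.

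Of 22 G1 cyclins, E2F and Rb family genes, 5 were higher and none lower in vitiligo_ABX against no_induction_ABX, beside 4.97% of all genes called, and 7 were called positive in the interaction, beside 11.5%. None of these calls held with the hair matrix level as a covariate, where 0 of all genes were called in either. With the Krtap level as a covariate 2 and 3 of all genes were called. The estimates that follow are without a covariate. E2f7, a repressive E2F factor, was at 1.06 ± 0.19 (adjusted p = 0.00992) in vitiligo_ABX against no_induction_ABX and at -0.80 ± 0.16 (adjusted p = 0.00164) in no_induction_ABX against no_induction. E2f2, an activating E2F factor, was at 0.91 ± 0.17 (adjusted p = 0.0108) and -0.80 ± 0.18 (adjusted p = 0.00299) in the same 2 comparisons, which share the no_induction_ABX libraries. Mycn was at 1.43 ± 0.27 (adjusted p = 0.0119) in vitiligo_ABX against no_induction_ABX. On the hair matrix level Mycn had a slope of 1.88 ± 0.17 (adjusted p = 7.80e-11) and E2f2 of 1.22 ± 0.11 (adjusted p = 1.18e-10), steeper than any member's estimate, which reached 1.07. In no_induction_ABX against no_induction, 1 of the 22 was higher and 5 were lower, beside 31.1% of all genes called. Ccnd3, a cyclin of G1, was higher in vitiligo against no_induction at 0.32 ± 0.089 (adjusted p = 0.0306), and Mybl2, which encodes B-Myb, lower at -0.49 ± 0.15 (adjusted p = 0.0423). In vitiligo_ABX against vitiligo, Cdk2, the partner of the E cyclins, rose at 0.40 ± 0.11 (adjusted p = 0.0198), and so did E2f3 at 0.44 ± 0.14 (adjusted p = 0.0430).

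Among 13 inhibitors of the cycle and arrest genes that passed the low-count filter, Cdkn2c, which encodes the CDK4 and CDK6 inhibitor p18, changed in 4 of the 5 comparisons. It was higher in vitiligo against no_induction at 0.82 ± 0.14 (adjusted p = 0.00112), and lower in vitiligo_ABX against vitiligo at -1.21 ± 0.17 (adjusted p = 1.79e-04), in no_induction_ABX against no_induction at -0.53 ± 0.097 (adjusted p = 6.79e-04) and in hippuric_acid against vehicle at -0.91 ± 0.12 (adjusted p = 0.00146). The first 2 of these comparisons share the vitiligo libraries. Of all genes 7.74%, 13.1%, 31.1% and 13.8% were called in these 4 comparisons, and 4.97% in vitiligo_ABX against no_induction_ABX. Genes named in this paragraph were picked for the smallest p of the list, so they do not give the share of the list called. Gadd45b, a stress gene linked to arrest, was at -1.11 ± 0.092 (adjusted p = 1.12e-06) in no_induction_ABX against no_induction and 0.83 ± 0.11 (adjusted p = 0.00475) in vitiligo_ABX against no_induction_ABX, and Gadd45a at -1.08 ± 0.11 (adjusted p = 7.40e-06) in no_induction_ABX against no_induction. Cdkn1a, which encodes p21, was at -0.49 ± 0.10 (adjusted p = 0.00201) there, and Cdkn1b, which encodes p27, rose in vitiligo_ABX against vitiligo at 0.34 ± 0.086 (adjusted p = 0.0160).

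The genes outside the set whose levels were most like the summed members were themselves mitotic. By the mean of the Pearson correlations within 4 groups (30 libraries, 13336 genes averaging at least 1 CPM), they were Nuf2 (0.91), a subunit of the NDC80 complex of the kinetochore, Cep55 (0.90), which acts at the cut between daughter cells, Nsl1 (0.88), a subunit of the MIS12 kinetochore complex, Sgo1 (0.87), the guardian of centromere cohesion, and Cenpa (0.87), the histone of the centromere. All but Nsl1 were on the fixed list of mitosis genes.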

How the data were processed

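Poly(A) RNA of tail skin was sequenced on an Illumina instrument, per the labels' protocols. Tools named in the submitters' processing notes are HISAT2, Bowtie2 (version 2.2.8), StringTie (version 1.3.1) and DESeq2, with no roles. Build, counting and strand are not given in the sources used here, so a gene and an overlapping or antisense neighbour could not be told apart. The authors deposited expected counts for all 38 libraries in 1 table of 19220 rows, of which 2 (a row with a gap and a row without a symbol) were not used. Since 16.2% of genes held values that were not whole, all were rounded, which changed no total by more than 22.1.

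Groups followed the treatment in the labels. Tests were two-sided quasi-likelihood F tests in edgeR (version 4.0.16, with R 4.3.3) on TMM factors and the default low-count filter, with robust fitting and only the libraries compared (30 for the interaction). P-values were adjusted by Benjamini-Hochberg over all genes tested, at a threshold of 0.05. Every adjusted p of a gene is from edgeR unless another tool is named, and each SE was derived from its F statistic. Slopes on a follicle level used 6 group terms over 38 libraries. CPM per kb used the longest protein-coding transcript of GENCODE M21, for length alone. The fits were tested on simulated data. Every pair of libraries within a group differed by more than counting noise. All members had at least 35 counts per library, the lowest being a count of Cdc6. How much of each member's spread was counting noise was not tested.

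The members and lists were chosen with earlier results of these data known. Any member could be named, and Mki67, Top2a, Mcm2, Pcna, Ccne1, Cdk1 and Ccnb1 were given in each of the comparisons, besides up to 4 genes of smallest p from each further list and the 5 genes most like the summed members. Tried as alternatives were no filter, RLE factors, DESeq2 (version 1.42.0), 1 fit of all libraries, totals without Krtap genes, a Krtap covariate, library numbers as a replicate block, hair keratins or 4 groups for the slopes, and leaving out each library. Levels of hair matrix and inner root sheath markers, and leaving out libraries with intestine markers, were added after seeing the data.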

Additional observations from a re-analysis of the deposited data

Results flagged for a closer look

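Of 80 groups of values tested for a library that stands apart (Dixon's ratio at 95%), 10 held one. Many of the 80 share libraries and genes, so this number cannot be set against a rate given by chance. In the vitiligo group library 001 was highest in 8 of the 10 flagged. It had 1872 CPM of all members (next 1160.3), 218 CPM of the G2/M drivers (next 142), 568 CPM of the chromosome and kinetochore genes (next 275) and 323 CPM of the spindle genes (next 199). Among single genes it had 302 CPM of Mki67 (next 126), 146 CPM of Top2a (next 93.8), 50.5 CPM of Cdk1 (next 26.6) and 53.3 CPM of Ccnb1 (next 35.8). In the no_induction group library 011, one of those with intestine markers, had 236 CPM of Mki67 (next 148). In the no_induction_ABX group library 005 was lowest for Mcm2, at 26.1 CPM (next 32.3). What set these libraries apart was not tested.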

How the results depend on the processing

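The number of members called moved by over 1.5 times in these cases. For vitiligo against no_induction (0 called) they were 1 with DESeq2 or all 38 libraries in one fit. For vitiligo_ABX against vitiligo (2 called) they were 0 with hair matrix level as covariate or libraries with intestine markers left out and 4 with RLE size factors, DESeq2, all 38 libraries in one fit, totals without Krtap genes or the library number as a replicate block. For no_induction_ABX against no_induction (1 called) they were 0 with RLE size factors, no low-count filter, all 38 libraries in one fit, Krtap level as covariate, totals without Krtap genes, the library number as a replicate block or libraries with intestine markers left out and 10 with hair matrix level as covariate. For hippuric_acid against vehicle (1 called) they were 0 with Krtap level as covariate, the library number as a replicate block or hair matrix level as covariate and 2 with DESeq2. For the interaction (0 called) they were 1 with libraries with intestine markers left out and 3 with DESeq2. With another level in place of the Krtap level, slopes were called for 19 members on the inner root sheath level and 36 on the hair matrix level (27 without vitiligo 001), against 0 on the Krtap level. Leaving out each library in turn gave 0 to 8 for vitiligo against no_induction, 1 to 19 for vitiligo_ABX against vitiligo, 0 to 2 for no_induction_ABX against no_induction, 0 to 2 for hippuric_acid against vehicle and 0 to 10 for the interaction, and 0 each time for vitiligo_ABX against no_induction_ABX and for the slope on the Krtap level. The highest counts of 8, 19 and 10 came without vitiligo 001, and no other library raised these counts above 4. Over all genes the calls moved by over 1.5 times as follows. For vitiligo against no_induction 1070 became 1744 with DESeq2, 1683 with all 38 libraries in one fit, 464 with Krtap level as a covariate, 344 with hair matrix level as a covariate and 511 with libraries with intestine markers left out. For vitiligo_ABX against vitiligo 1837 became 2811 with all 38 libraries in one fit, 706 with hair matrix level as a covariate and 961 with libraries with intestine markers left out. For no_induction_ABX against no_induction 4351 became 1 with Krtap level as a covariate and 846 with hair matrix level as a covariate. For vitiligo_ABX against no_induction_ABX 689 became 1283 with DESeq2, 2 with Krtap level as a covariate and 0 with hair matrix level as a covariate. For the interaction 1639 became 3 with Krtap level as a covariate and 0 with hair matrix level as a covariate. For the slope on the Krtap level 170 became 332 with DESeq2, 97 with the replicate block, 462 with the hair keratin level in its place and 86 with 4 groups of 6 or more libraries. Some fold changes of members that were not called changed sign. With the Krtap covariate they were Mki67 -0.11 for vitiligo against no_induction, Ccnb1 0.026, Ccne1 -0.045, Cdk1 0.24 and Top2a 0.37 for no_induction_ABX against no_induction and Ccnb1 -0.13 and Ccne1 -0.019 for hippuric_acid against vehicle. With the hair matrix covariate they were Ccnb1 0.078, Ccne1 0.074, Cdk1 0.16, Mcm2 0.034, Pcna 0.088 and Top2a 0.28 for vitiligo against no_induction and Ccnb1 -0.11, Cdk1 -0.058 and Top2a -0.15 for vitiligo_ABX against vitiligo. With the hair matrix covariate they were Ccnb1 0.68, Cdk1 0.80, Mki67 0.71, Pcna 0.20 and Top2a 0.61 for no_induction_ABX against no_induction and Ccnb1 -0.71, Ccne1 -0.64, Cdk1 -0.54, Mcm2 -0.11, Mki67 -0.49, Pcna -0.12 and Top2a -0.11 for vitiligo_ABX against no_induction_ABX. With the hair matrix covariate they were Ccnb1 -0.34, Ccne1 -0.22 and Pcna -0.036 for hippuric_acid against vehicle and Ccnb1 -0.75, Ccne1 -0.74, Cdk1 -0.78, Mcm2 -0.32, Mki67 -1.15, Pcna -0.27 and Top2a -0.67 for the interaction. With libraries with intestine markers left out they were Pcna 0.0055 for vitiligo against no_induction, Mcm2 -0.025 for no_induction_ABX against no_induction and Mki67 -0.14 for the interaction. With all 38 libraries in one fit they were Mcm2 -0.0070 for no_induction_ABX against no_induction. With RLE size factors they were Ccnb1 -0.0020 for hippuric_acid against vehicle. With DESeq2 they were Ccnb1 -0.0023 for hippuric_acid against vehicle. With the library number as a replicate block they were Ccnb1 -0.34, Ccne1 -0.18 and Pcna -0.048 for hippuric_acid against vehicle and Top2a 0.037 for the slope on the Krtap level. With 4 groups of 6 or more libraries they were Top2a 0.030 for the slope on the Krtap level. Leaving out 1 library at a time spanned 0 for Pcna (-0.055 to 0.026) and Mki67 (-0.21 to 0.23) in vitiligo against no_induction, Pcna (-0.044 to 0.044) and Mki67 (-0.22 to 0.13) in vitiligo_ABX against vitiligo, Mcm2 (-0.047 to 0.056), Cdk1 (-0.19 to 0.0089) and Ccne1 (-0.062 to 0.14) in no_induction_ABX against no_induction, Pcna (-0.027 to 0.045), Ccne1 (-0.085 to 0.16) and Mki67 (-0.017 to 0.21) in vitiligo_ABX against no_induction_ABX, Ccnb1 (-0.15 to 0.12), Cdk1 (-0.28 to 0.025), Ccne1 (-0.059 to 0.080) and Pcna (-0.00052 to 0.085) in hippuric_acid against vehicle, Mki67 (-0.16 to 0.29) and Pcna (-0.017 to 0.075) in the interaction and Top2a (-0.074 to 0.051) in the slope on the Krtap level. Correlations with the Krtap level changed sign for Mki67 in vitiligo (0.66 with hair matrix markers in place of Krtap genes), Top2a in vitiligo_ABX (-0.95 with 2 libraries farthest from the median Krtap level left out), Top2a in vitiligo_ABX (-0.71 with hair matrix markers in place of Krtap genes) and Top2a in vitiligo (0.74 with hair matrix markers in place of Krtap genes). Libraries of 2 groups that shared a number had correlations of deviations from -0.15 to 0.39, in 2 to 6 pairs a comparison. These were not set against pairs of unlike number, so they cannot show whether the numbers pair libraries. The main fits used no block, and vitiligo and no_induction shared only 1 number. With the block the members' median in hippuric_acid against vehicle was -0.069, against 0.16 without it. With 3 to 9 libraries a group, several estimates of over 2 SE were not called. The cause of each move was not tested.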
